A study of Mus musculus with 11 samples.

Results

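This section describes 9 genes of the complement system, C4b, C4a, C3, C2, Cfb, Serping1, C3ar1, C5ar1 and Cd59a, of the 24411 gene symbols counted, in mouse corpus callosum and in cultured neurospheres. The genes were listed by symbol, and C4b, which heads the list, was chosen by its measured level in callosum libraries labelled Bmal1-/- against wild type. The genotype values of the 9 genes in the callosum are therefore given as a description without a test. The corpus callosum is the tract of myelinated axons between the hemispheres. Neurospheres are balls of dividing neural progenitors. Here they came from the subventricular zone, the germinal layer beside the lateral ventricles, and grew for 1 week in medium that held EGF at 20 ng/ml and heparin at 2 ug/ml. Mice were 8 to 10 weeks old and either wild type or labelled Bmal1-/-, with no strain, sex, allele or driver given, and no lesion or treatment is named for any library. RNA sequencing gave 3 wild-type callosum libraries, 2 callosum libraries labelled Bmal1-/-, 3 wild-type neurosphere libraries and 3 neurosphere libraries labelled Bmal1-/-. Whether a group's libraries were drawn from different mice or cultures is not stated, so a p-value covers only the spread between libraries, which may be technical.

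Complement is a cascade of plasma and tissue proteins that tags cells, debris and microbes. The classical and lectin routes cleave C4 and then C2, the alternative route uses factor B, and all of them converge on C3. Fragments of C3 and C5 signal through receptors on phagocytes, and inhibitors hold the cascade in check on the surface of host cells. In the brain, glial cells make several of these proteins, and C1q, C3 and C4 are known for tagging synapses during development and disease.

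Mouse C4b and C4a are neighbouring copies on chromosome 17, and how far reads can tell them apart decides what their counts mean. C4b lies on the minus strand of chromosome 17 at 34728139 to 34743902 and C4a on the same strand at 34809092 to 34823460 (RefSeq positions, GRCm38.p6, the assembly of mm10). Over 5367 aligned bases of their longest GENCODE M21 transcripts, 207 bases differed, an identity of 96.14%, and the longest identical run was 433 bases. In each transcript, 35.2% of all 50-base stretches also occurred in the other gene. The files list reads mapping to several places at 0, and how such reads were treated is not stated, so the counts of both copies are uncertain to that extent. The pair of 90-base stretches below holds the most differences, 14, found within 1 exon inside the coding span of C4b. It lies in exon 21 of both transcripts, at chr17:34735430-34735519 for C4b and chr17:34816086-34816175 for C4a (mm10, minus strand, printed 5′ to 3′). Capitals mark the bases that differ.
C4b: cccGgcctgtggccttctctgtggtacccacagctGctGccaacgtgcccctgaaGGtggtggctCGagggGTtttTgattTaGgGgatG
C4a: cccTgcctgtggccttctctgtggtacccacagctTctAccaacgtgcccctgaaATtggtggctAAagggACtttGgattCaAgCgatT
A short read from such a stretch can be assigned to 1 copy, whereas one from inside the identical run cannot.

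The libraries held 17450270 to 19717848 gene counts each, between 16716 and 17076 genes with a count, and the counts did not use strand. Arntl, the gene symbol of Bmal1, stood at 35.9 ± 3.38 CPM (counts scaled to library size, SD, n = 3) in wild-type callosum against 36.3 ± 5.64 CPM (SD, n = 2) with the Bmal1-/- label, and at 44.5 ± 5.70 against 44.1 ± 4.34 CPM (SD, n = 3 each) in neurospheres, so the targeted gene's count gave no check of the labels. Nr1d2, a clock gene that BMAL1 is known to activate, was lower with the label in both sources (edgeR log2 fold change -2.80 in callosum, adjusted p = 0.00117, and -4.11 in neurospheres, adjusted p = 0.000403). It was named after its values were seen. Of 16 listed clock genes, 3 passed as higher and 5 as lower in callosum, where 0.521% and 0.387% of all tested genes did. In neurospheres 0 of the 16 passed as higher and 1 as lower, where 0.00716% of all tested genes passed. Myelin genes (12 in the list) summed to 22388 to 34753 CPM in callosum and 1531 to 2579 CPM in neurospheres, and 12 neural stem and progenitor genes to 253 to 384 CPM in callosum and 4715 to 7278 CPM in neurospheres. Each source thus carried the markers of its label. Mature neuron genes (10) also summed to 7014 to 9502 CPM in callosum libraries, and striatal neuron genes (10) to 953, 3107 and 1716 CPM in wild type against 853 and 1116 CPM with the Bmal1-/- label, so the dissected tissue was not white matter alone. In neurospheres, replicate 1 labelled Bmal1-/- stood apart, with 22.6% of reads unmapped against 13.7% to 16.2% in the other 5. In these bulk samples, fewer cells of a type and less RNA per cell cannot be told apart.

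C4b encodes complement C4, whose activated form binds covalently to nearby surfaces. In wild-type callosum its level was 34.5, 49.0 and 36.4 CPM, and in the callosum libraries labelled Bmal1-/- it was 386 and 506 CPM. The lowest library with the Bmal1-/- label was far above the highest wild-type library. In counts these were 501, 740 and 532 against 5528 and 7335. The fitted difference was 3.49 ± 0.18 on the log2 scale (SE, edgeR), or 11.3-fold, and C4b ranked second of 14198 tested genes by log2 fold change. Over 12 alternative settings, leaving out each library among them, the difference ranged from 3.29 to 3.68. Over all genes tested, 0.909% passed an adjusted p of 0.05 by edgeR in this comparison, and 0.521% passed as higher. C4b was the 1 gene to pass of the 8 tested in the set, which follows from how it was chosen.

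**Figure D1:**
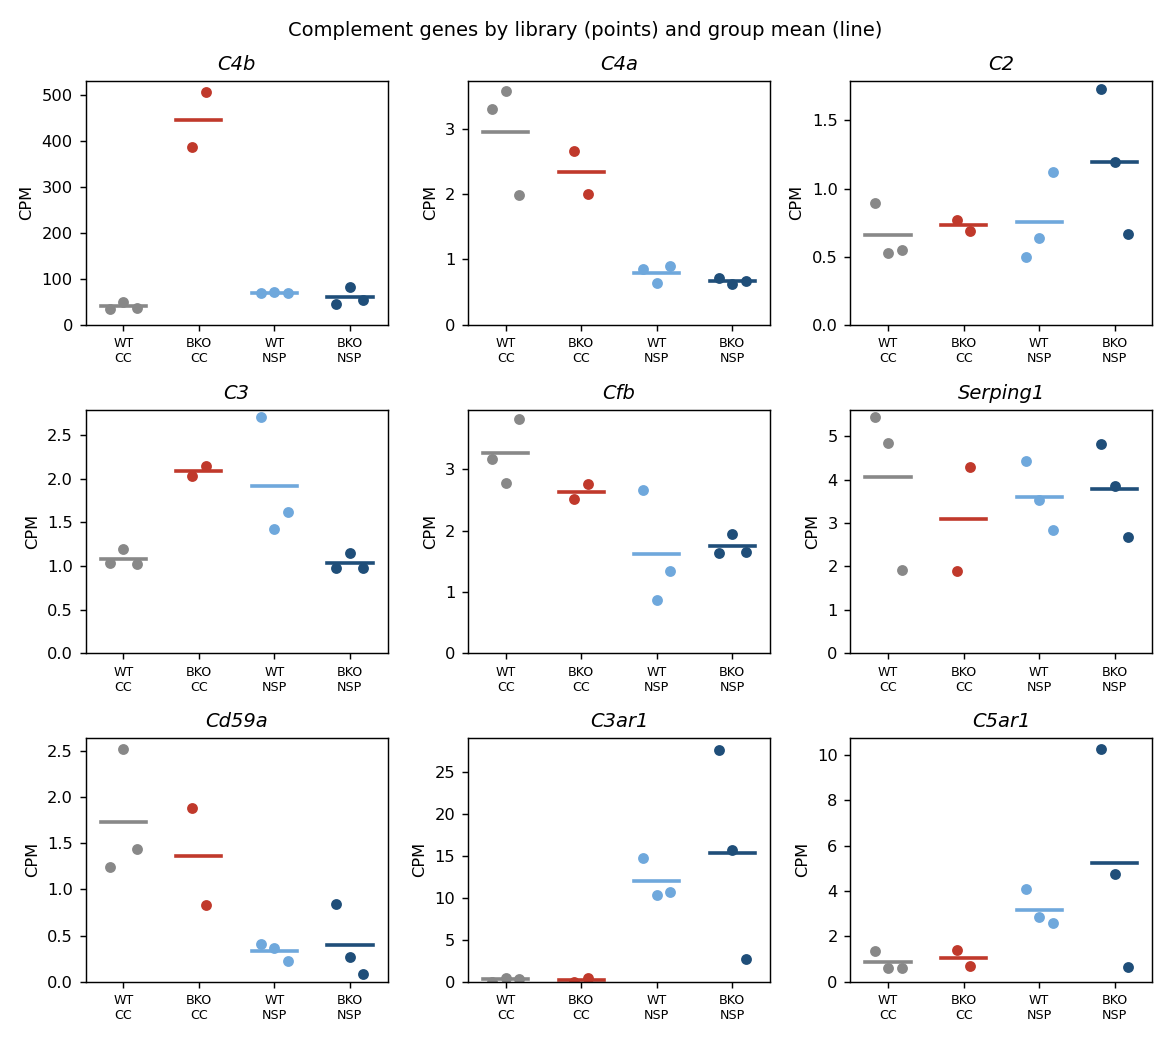
Level of each of the 9 genes in CPM (vertical axes, from 0, each with its own range) in every library, by group (CC, callosum; NSP, neurospheres; BKO, labelled Bmal1-/-), with points for libraries and lines for group means. C4b in callosum labelled Bmal1-/- sits at 386 and 506 CPM, above all other groups, whereas C3ar1 and C5ar1 spread widely in neurospheres labelled Bmal1-/-.

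C4a encodes a C4 copy that in mice is known as sex-limited protein. It did not follow C4b. Its counts were 48, 54 and 29 in wild-type callosum and 38 and 29 with the Bmal1-/- label, so the groups overlapped. The fitted difference of C4a was -0.33 ± 0.32 (SE) on the log2 scale. Between the group means in callosum, C4b gained 5841 counts while C4a changed by -10.2 counts. The ratio of C4b to C4a counts was 10.4, 13.7 and 18.3 in the wild-type callosum libraries and 145 and 253 in those labelled Bmal1-/-. The added counts were thus assigned to C4b and not to C4a. With the counts of both copies summed, the difference was 3.40 ± 0.18 (SE), or 10.5-fold.

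C2, the protease that activated C4 binds to form the C3-cleaving enzyme of the classical and lectin routes, was rare in every library. Its counts were 13, 8 and 8 in wild-type callosum and 11 and 10 with the Bmal1-/- label (0.16 ± 0.46 on the log2 scale, SE). C3, the protein on which the routes converge, had 15, 18 and 15 counts in wild-type callosum and 29 and 31 with the Bmal1-/- label. These are levels of 1.03 to 1.19 CPM against 2.03 and 2.14 CPM, and the groups did not overlap. The fitted difference of C3 was 0.95 ± 0.31 (SE) on the log2 scale. Cfb, factor B of the alternative route, stood at 3.17, 2.78 and 3.83 CPM in wild-type callosum and 2.51 and 2.76 CPM with the Bmal1-/- label, just below the wild-type libraries (-0.29 ± 0.25, SE). Among the 9 genes, 2 (C4b and C3) lay higher in callosum without overlap and 1 (Cfb) lower. Over all tested genes, 13.7% lay higher without overlap and 18.7% lower, so the set's counts are not read as a result. A read-through transcript, Gm20547, holds 58% of the 50-base stretches of C2 and 81.4% of those of Cfb, so how reads shared with it were counted bears on both, and an exon of C2 overlaps Zbtb12 on the opposite strand.

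Serping1 encodes the C1 inhibitor, which blocks the proteases that start the classical and lectin routes. It varied more within callosum groups than between them. Its level was 5.44, 4.84 and 1.91 CPM in wild type and 1.89 and 4.28 CPM with the Bmal1-/- label (-0.38 ± 0.48 on the log2 scale, SE). Leaving out replicate 2 labelled Bmal1-/- gave -1.08 for Serping1, and leaving out replicate 1 gave 0.096. Cd59a, a membrane inhibitor of the terminal pore, had 18, 38 and 21 counts in wild-type callosum and 27 and 12 with the Bmal1-/- label (-0.34 ± 0.46, SE). Leaving out 1 library moved the Cd59a difference between -1.04 (without replicate 1 labelled Bmal1-/-) and 0.14 (without replicate 2). The receptors of the anaphylatoxins were near the limit of detection in callosum. C3ar1, the receptor of C3a, had 0, 7 and 5 counts in wild type and 0 and 6 with the Bmal1-/- label and was left out of the callosum fit by the filter on low counts. A count of 0 in these libraries allows a level of up to 0.206 CPM in wild-type replicate 1 and 0.210 CPM in replicate 1 labelled Bmal1-/-, for counting error only. C5ar1, the receptor of C5a, had 20, 9 and 9 counts in wild type and 20 and 10 with the Bmal1-/- label (0.29 ± 0.52, SE). Its difference also turned with the library left out, from -0.29 without replicate 1 labelled Bmal1-/- to 0.72 without replicate 2. For all 4 of these genes the genotype groups overlapped.

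Per kilobase of the longest transcript, C4b ranked first of the 9 genes in all 4 groups. In wild-type callosum it reached 7.43 ± 1.47 CPM per kb (SD, n = 3), followed by Serping1 at 2.30 ± 1.07, Cfb at 1.18 ± 0.192 and Cd59a at 0.958 ± 0.381. The ranges over libraries of Serping1, Cfb and Cd59a overlapped, so their order is not resolved. C3 at 0.211 ± 0.0184 overlapped C2 at 0.249 ± 0.0779, and C3ar1 at 0.0624 ± 0.0559 was the lowest. In callosum labelled Bmal1-/-, C4b stood at 83.0 ± 15.8 CPM per kb (SD, n = 2) and the next gene, Serping1, at 1.74 ± 0.958. In wild-type neurospheres C4b reached 12.97 ± 0.273 CPM per kb (SD, n = 3) and C3ar1 came second at 2.78 ± 0.569, whereas C4a was last at 0.149 ± 0.0257. The ranges of C3ar1 and Serping1 overlapped, as did those of C4a and Cd59a, so these places are not resolved. By group mean, the place of C3ar1, second in neurospheres and last in callosum, was the largest move in the order. With the Bmal1-/- label the first 5 genes of the neurosphere order were the same by group mean, with C4b at 11.3 ± 3.65 CPM per kb (SD, n = 3). There C3ar1 ran from 0.630 to 6.43 CPM per kb and C5ar1 from 0.263 to 4.05, so the order below C4b is not resolved either.

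The rest of the complement system gave the setting of C4b in the callosum. Of 52 other complement genes listed, 50 symbols had a row, 6 of these had no count in any library, and 24 passed the filter in callosum. In the genotype comparison 0 of the 24 passed, whether by edgeR, DESeq2 or limma-voom. Without adjustment, 6 of the 24 had an edgeR p under 0.05, as did 13.9% of all tested genes. Of these 6, C1qa, C1qc, C1ra and Masp1 had a positive and Csmd1 and Vtn a negative log2 fold change. The median over the 24 was 0.12, against -0.0059 over all tested genes. C1qa, a chain of the C1q protein that recognises antibody and other targets and opens the classical route, stood at 78.7, 93.1 and 92.8 CPM in wild type and 127 and 103 CPM with the Bmal1-/- label (0.39 ± 0.13 on the log2 scale, SE, edgeR adjusted p = 0.24). C1ra, the protease bound to C1q, stood at 4.47, 3.84 and 4.85 CPM against 9.29 and 5.94 CPM (0.81 ± 0.24, SE, adjusted p = 0.20). Masp1, a protease of the lectin route, stood at 8.19, 8.42 and 8.89 CPM against 16.5 and 11.7 CPM (0.74 ± 0.18, SE, adjusted p = 0.12). Vtn, which encodes vitronectin, an inhibitor of pore formation, went the other way, with 86.2, 84.3 and 71.0 CPM against 52.3 and 60.7 CPM (-0.50 ± 0.13, SE, adjusted p = 0.13). For each of these 4 genes the genotype groups did not overlap, and none of the 4 passed. Over all tested genes, 13.7% lay higher and 18.7% lower without overlap, so this is not read as a result. They were chosen here after their values were seen. Genes of the terminal pore summed to 2.65 to 4.75 CPM in the callosum libraries, and 2 of 7 passed the filter.

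Cell type markers were read beside the C4b values. The 14 general astrocyte genes summed to 3401 to 3623 CPM in wild-type callosum and to 3504 and 3803 CPM with the Bmal1-/- label, with none at 0, and 0 rose and 1, Aldh1l1, fell. The 16 microglia genes summed to 530 to 599 CPM and to 535 and 599 CPM, with none at 0 and 0 called. The summed levels of both lists overlapped between the genotypes. Log2 fold changes within them ran from -0.55 to 0.65 (astrocyte) and from -0.51 to 0.39 (microglia). The part of either cell type in the C4b difference was not tested. Of 36 genes that astrocytes are known to raise when reactive, a list that includes Serping1, 28 were tested and 3 rose (Gfap, Serpina3n and Aspg), and the list summed to 555 to 726 CPM in wild type and to 2120 and 2237 CPM with the Bmal1-/- label. Most of that sum was Gfap, which had 356 to 489 CPM in wild type against 1860 and 1949 CPM with the label. Over all tested genes, 0.521% passed as higher and 0.387% as lower by edgeR in callosum. Over the 28 genes the median log2 fold change was 0.22, 17 were above 0, and values reached down to -1.38 (Tm4sf1), with 0 called as lower. The 3 genes that rose moved with C4b, and the part of reactive astrocytes in its difference was not tested. The 9 border macrophage genes summed to 27.0 to 31.9 CPM and to 22.3 and 29.9 CPM. The 9 neutrophil and monocyte genes summed to at most 1.05 CPM in any callosum library, with 4 to 7 of them at 0, and the 6 lymphocyte genes to at most 2.27 CPM, with 1 or 2 at 0.

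**Figure D2:**
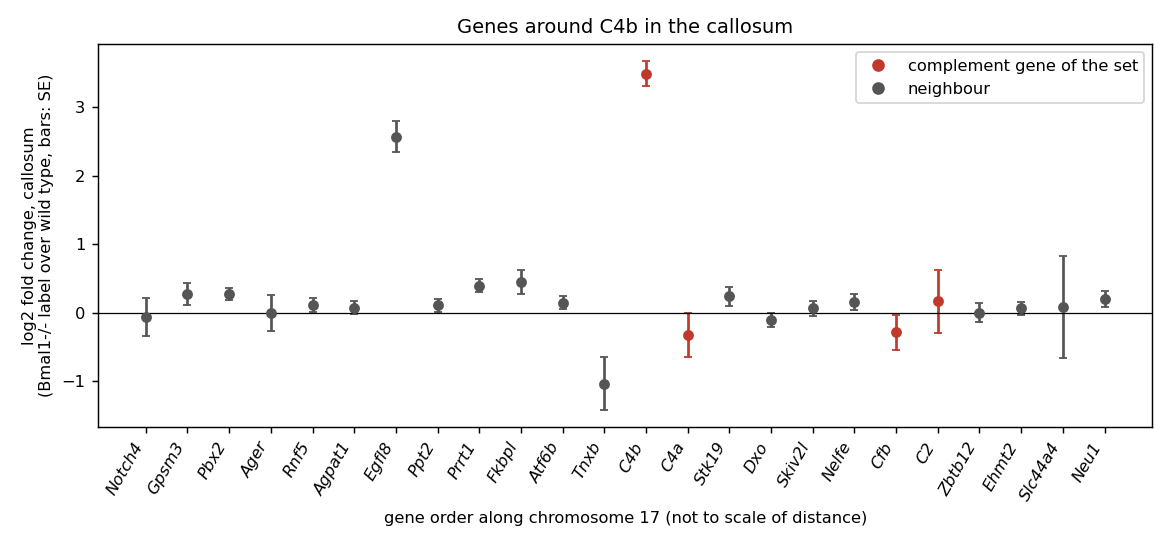
Log2 fold change in callosum (vertical axis, libraries labelled Bmal1-/- over wild type, edgeR, bars SE) of tested genes around C4b in their order along chromosome 17, with complement genes of the set in red and neighbours in grey. C4b (3.49) and Egfl8 (2.57) stand apart from their neighbours, of which the other 19 lie between -1.04 and 0.45.

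Because C4b, C4a, C2 and Cfb lie in 1 stretch of chromosome 17, their neighbours were examined too. Of 21 listed neighbours other than the complement genes, 20 were tested in callosum, and 1 rose and 0 fell. Over all tested genes, 0.521% passed as higher and 0.387% as lower by edgeR. The neighbour that rose was Egfl8, which encodes a secreted protein with EGF-like domains, at chromosome 17, 34613349 to 34616562. It had 21, 21 and 22 counts in wild type and 105 and 142 with the Bmal1-/- label, which gave 2.57 ± 0.23 on the log2 scale (SE, edgeR adjusted p = 0.00117). Egfl8 did not pass in the model of all 11 libraries (adjusted p = 0.0697), 27.9% of its 50-base stretches occur in the read-through transcript Gm20460, and an exon overlaps Agpat1 on the opposite strand. The other 19 neighbours ranged from -1.04 to 0.45 with a median of 0.11. Tnxb, the gene between Atf6b and C4b in that order, was the lowest of them, and Stk19, which follows C4a, was at 0.24 ± 0.14 (SE).

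In neurospheres 0 of the 8 tested genes of the set passed between the genotypes by edgeR, DESeq2 or limma-voom. Of all tested genes 0.00716%, a single gene, passed by edgeR. C3 was the 1 of the 8 with an edgeR p under 0.05 before adjustment, as were 3.02% of all tested genes. C4b had 68.8, 71.5 and 69.0 CPM in wild type, and 46.1, 83.2 and 53.4 CPM with the Bmal1-/- label. The wild-type libraries were close together and lay inside the range of the others. C4b differed by -0.20 ± 0.23 on the log2 scale (SE, edgeR adjusted p = 0.80), and C4a stood at -0.26 ± 0.33 (adjusted p = 0.81). C3 had 60, 31 and 36 counts in wild type and 22, 26 and 22 with the Bmal1-/- label, lower without overlap, as were 5.52% of all tested genes, and none of the set was higher without overlap, where 6.37% of all tested genes were. Its log2 fold change of -0.88 ± 0.35 (SE) did not pass (edgeR adjusted p = 0.80), and its sign was opposite to that in callosum. C2 (0.67 ± 0.47), Cfb (0.10 ± 0.42) and Serping1 (0.08 ± 0.31) did not pass either, and Cd59a, at 2 to 19 counts, was left out by the filter. The genotype difference of C4b was 3.67 ± 0.33 (SE) larger in callosum than in neurospheres on the log2 scale, in an interaction term that 0.0131% of all tested genes passed by edgeR. That of C3 was 1.82 ± 0.47 larger, did not pass, and rested on 15 to 60 counts per library. Both include the callosum contrast and are given as a description.

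**Figure D3:**
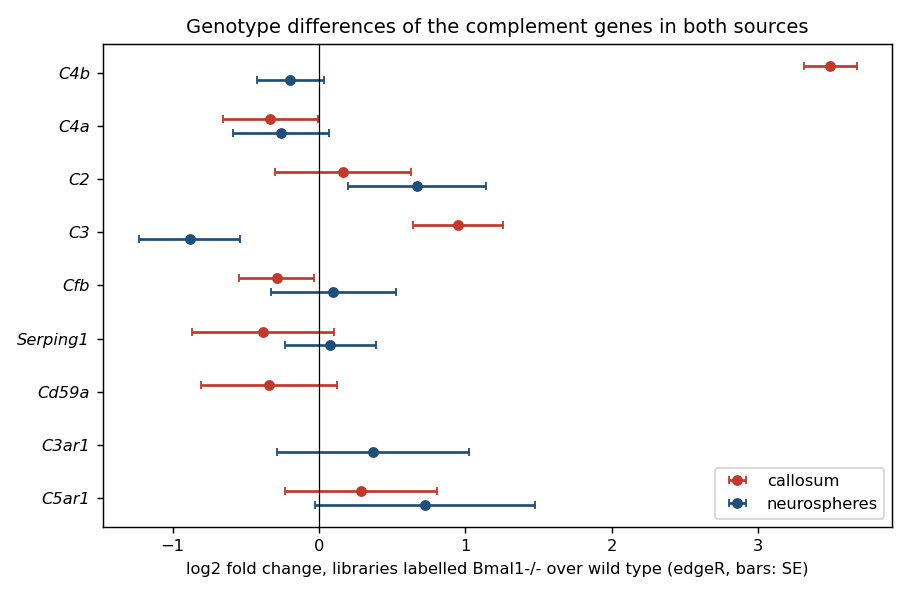
Log2 fold change (horizontal axis, libraries labelled Bmal1-/- over wild type, edgeR, bars SE) of the 9 genes in callosum (red) and neurospheres (blue), with no point where the filter on low counts left a gene out. C4b lies at 3.49 in callosum and at -0.20 in neurospheres, and C3 at 0.95 and -0.88.

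The receptors C3ar1 and C5ar1 spread widely between neurosphere libraries labelled Bmal1-/-. The level of C3ar1 was 14.8, 10.4 and 10.7 CPM in wild type, and 27.7, 15.7 and 2.71 CPM in replicates 1, 2 and 3 with the Bmal1-/- label. For C5ar1 it was 4.10, 2.84 and 2.60 CPM, and 10.3, 4.77 and 0.667 CPM in the same order. Both receptors were thus highest in replicate 1 and lowest in replicate 3 of the Bmal1-/- label, with wild type between. Neither passed between the genotypes (C3ar1 0.37 ± 0.66, SE, edgeR adjusted p = 0.86, and C5ar1 0.73 ± 0.75, adjusted p = 0.80). Without replicate 1 labelled Bmal1-/-, which stood apart in unmapped reads, the values were -0.38 and -0.23.

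The C1q chains had the same order over these libraries. C1qa had 13.5, 11.02 and 11.9 CPM in wild-type neurospheres, and 52.8, 15.7 and 5.02 CPM in replicates 1, 2 and 3 labelled Bmal1-/-. C1qb (48.4, 13.4 and 2.80 CPM) and C1qc (39.9, 13.5 and 2.71 CPM) followed the same order. Of the microglia list, Sall1 and Cd68 were among the genes with the highest mean levels in neurospheres. The lysosomal gene Cd68 had 28.3 to 30.2 CPM in wild type, and 72.0, 35.3 and 12.7 CPM with the Bmal1-/- label, whereas Sall1, at 43.3 CPM in replicate 1 against 90.2 and 98.6 CPM, did not follow. Csf1r, the receptor that microglia and macrophages depend on, was added after its values were seen and stood at 8.77, 5.52 and 1.33 CPM. The 9 border macrophage genes did not follow that order either, summing to 35.6, 23.7 and 23.1 CPM in wild type and to 34.2, 35.5 and 5.51 CPM with the Bmal1-/- label. The whole microglia list summed to 205 to 224 CPM in wild-type neurospheres and to 272, 214 and 161 CPM with the Bmal1-/- label, with at most 2 of the 16 genes at 0, and the part of either list in the receptor values was not tested.

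**Figure D4:**
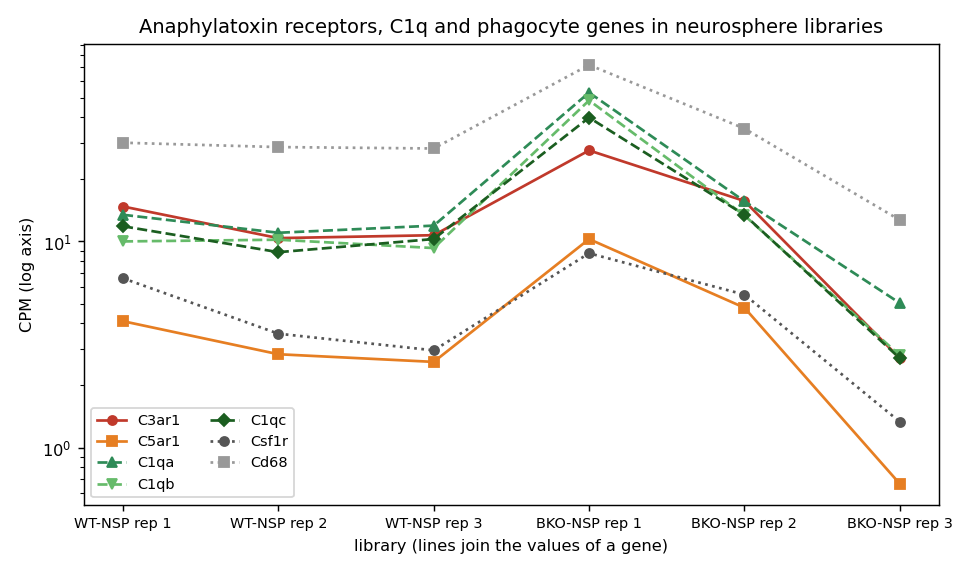
Level in CPM (vertical log axis) of C3ar1, C5ar1, the 3 C1q chains, Csf1r and Cd68 in each of the 6 neurosphere libraries (horizontal axis), with lines joining the values of a gene. All 7 genes are highest in replicate 1 labelled Bmal1-/- and lowest in replicate 3, where C3ar1 falls to 2.71 CPM. Csf1r was added after its values were seen, and Sall1 of the microglia list, which did not follow this order, is not shown.

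The promoters of C3ar1 and C5ar1 are shown (RefSeq, GRCm38.p6, 300 bases around an annotated start, minus strand, 5′ to 3′). Any part of these sequences in the receptor values was not tested. A promoter entry was found for 4 of the 9 genes, C3, C3ar1, C5ar1 and Cd59a, and not for C4b, C4a, C2, Cfb or Serping1. The C3ar1 window is at chr6:122856108-122856407 and the C5ar1 window at chr7:16259289-16259588. The 2 windows are not placed alike. On the minus strand the C3ar1 gene begins at 122856157, so most of its window lies upstream. The C5ar1 gene begins at 16259540, so most of its window lies inside the gene. Both strands were searched for 11 short motifs: E-box CACGTG, its variant CACGTT, D-box TTANGTAA, ROR element TAGGTCA, STAT TTCNNNGAA and TTCCNGGAA (the second a special case of the first), the ISRE core, the NF-kappaB core, C/EBP TTGNNNAA, glucocorticoid receptor TGTTCT and AP-1 TGANTCA. Capitals mark the matches.
C3ar1: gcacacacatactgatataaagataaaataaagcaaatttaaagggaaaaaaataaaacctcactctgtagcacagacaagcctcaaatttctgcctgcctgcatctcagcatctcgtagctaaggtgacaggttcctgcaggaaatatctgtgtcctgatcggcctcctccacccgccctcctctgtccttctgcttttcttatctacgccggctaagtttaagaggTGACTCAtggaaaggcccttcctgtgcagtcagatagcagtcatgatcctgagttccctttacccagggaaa
C5ar1: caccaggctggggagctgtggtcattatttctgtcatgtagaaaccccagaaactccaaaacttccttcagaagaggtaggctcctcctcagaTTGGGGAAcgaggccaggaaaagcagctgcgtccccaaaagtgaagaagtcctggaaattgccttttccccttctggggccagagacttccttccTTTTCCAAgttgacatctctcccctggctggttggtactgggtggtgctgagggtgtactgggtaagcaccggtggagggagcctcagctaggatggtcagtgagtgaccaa
The C3ar1 window held 1 match to the AP-1 letters TGANTCA, which 7.81% of 32851 promoters hold. That of C5ar1 held 2 matches to the C/EBP letters TTGNNNAA, which 36.7% hold. The other 9 motifs had no match in either window, the E-box CACGTG, held by 7.15% of promoters, among them.

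Between the wild-type sources, a comparison that uses no library labelled Bmal1-/-, 6 of the 9 genes passed, 3 higher and 3 lower in callosum. Most genes did so too, since 85.8% of all tested genes passed by edgeR, 42% as higher and 43.8% as lower. C4b was lower in wild-type callosum than in wild-type neurospheres, with every callosum library (34.5 to 49.0 CPM) below every neurosphere library (68.8 to 71.5 CPM), and it differed by -0.76 ± 0.14 on the log2 scale (SE, edgeR adjusted p = 0.000642). C4a went the other way, with 48, 54 and 29 counts in callosum against 19, 14 and 20 (1.92 ± 0.32, SE, adjusted p = 0.000303). The 2 copies therefore had opposite signs between the sources, and their sum was lower in callosum (-0.67 ± 0.14, SE, adjusted p = 0.0013). C3ar1 was lower in callosum (-5.39 ± 0.47, SE, and -6.02 to -4.82 with 1 library left out), with 0 to 7 counts per wild-type callosum library against 227 to 328 counts per wild-type neurosphere library. C5ar1 was lower by 1.83 ± 0.37 (SE) on the log2 scale, and Cd59a (2.41 ± 0.42) and Cfb (1.04 ± 0.39, adjusted p = 0.0294) were higher. C3ar1, C5ar1 and Cd59a passed the filter on low counts only through the source in which they were high, so a difference was built in. Their calls and their share in the count of 6 are no support. The call of Cfb ended in 6 of the alternatives, among them library totals with no scaling (0.53, adjusted p = 0.23) and leaving out wild-type neurosphere replicate 2 (0.72, adjusted p = 0.0935) or 3 (0.0827) or wild-type callosum replicate 1 (0.0589) or 3 (0.0962). C3 (-0.77 ± 0.34, adjusted p = 0.0547), C2 (-0.15 ± 0.43) and Serping1 (0.22 ± 0.36) did not pass, C3 passing without wild-type neurosphere replicate 2 (-0.97, adjusted p = 0.0355), with library totals (-1.28, adjusted p = 0.00639) and in the model of 11 libraries (-0.78, adjusted p = 0.037). Without overlap, 3 of the 9 lay higher in callosum and 4 lower, where 42.3% and 45.4% of all tested genes did.

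Of the other complement genes, 22 were tested between the wild-type sources, of which 13 were higher and 5 lower in callosum, with a median of 1.30 against -0.06 over all tested genes. Over all tested genes, 85.8% passed by edgeR, 42% as higher and 43.8% as lower. The counts of 13 and 5 also hold genes that passed the filter through 1 source only and so had to differ. They are not read as a result. Vtn was higher by 7.88 ± 0.23 (SE) on the log2 scale. It was such a gene, passing the filter only through callosum, so its call is no support. Clu, which encodes clusterin, another fluid-phase inhibitor, stood at 2573 to 2763 CPM in wild-type callosum against 63.7 to 83.1 CPM in wild-type neurospheres (5.21 ± 0.15, SE). The C1q chains were higher by 2.91 ± 0.13 (C1qa), 3.07 ± 0.11 (C1qb) and 2.91 ± 0.13 (C1qc). Their sign was opposite to that of C3ar1 and C5ar1, whose calls are no support. Csmd1, a membrane protein with complement control domains (3.91 ± 0.16), and Cfp, properdin of the alternative route (1.80 ± 0.14), were higher as well. Cd93, a membrane protein of endothelial and myeloid cells, was lower by 4.09 ± 0.26. All 8 had an adjusted p of 1.5e-06 or less by edgeR, which for Vtn is no support. Microglia genes were higher in callosum (12 of 15 tested, 0 lower, summed level 530 to 599 CPM against 205 to 224 CPM), and their part in the C1q values was not tested. Culture, dissection and library preparation go with source and cannot be told apart.

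**Figure D5:**
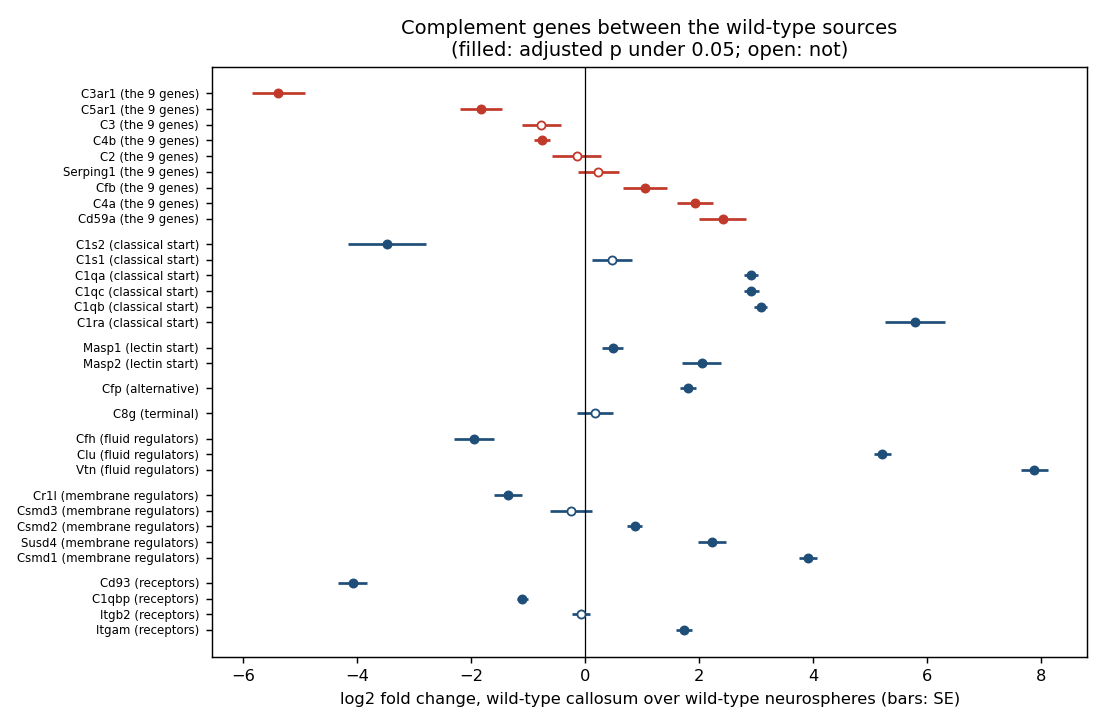
Log2 fold change (horizontal axis, wild-type callosum over wild-type neurospheres, edgeR, bars SE) of tested complement genes by role, with the 9 genes of the set in red, filled where the adjusted p is under 0.05. C4b (-0.76) and C4a (1.92) lie on opposite sides of 0, and C3ar1 (-5.39) is the lowest gene shown.

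The genes whose pattern was most like that of C4b were found by the root mean square difference of log2 CPM, each gene centred on its own mean. Over all 11 libraries, with 15322 genes compared, the nearest were Krt28 (0.65), Igsf1 (0.66), Egfl6 (0.66), Plekhd1 (0.71) and Bcl3 (0.72), differences that compare with an SD of 1.29 for C4b itself. All 5 had a higher level in both callosum libraries labelled Bmal1-/- than in every other library, which follows from how they were chosen and is no support. They differed in abundance. Bcl3, a nuclear partner of NF-kappaB, had 1.57 to 2.00 CPM in wild-type callosum, 10.8 and 14.4 CPM with the Bmal1-/- label and 2.96 to 7.71 CPM in neurospheres. Krt28 and Igsf1 rested on 4 to 52 counts per library. Egfl6 had 80 and 89 counts in callosum labelled Bmal1-/- and 4 to 11 in every other library. It passed the filter on low counts only through the group in which it was high. Over the 5 callosum libraries alone the nearest were Sox3 (0.30), Fabp7 (0.39), Bcl3 (0.43), Egfl8 (0.55) and Egfl6 (0.56). Egfl8 is the listed neighbour on chromosome 17 that was called in callosum. Its likeness to C4b there rests on the same libraries and is not separate evidence. Sox3 and Fabp7 were near C4b in callosum but not over all libraries. Fabp7, for example, stood at 0.551 to 1.72 CPM in wild-type callosum and 505 to 711 CPM in wild-type neurospheres, whereas C4b differed 1.75-fold between the group means of those sources.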

How the data were processed

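The deposited files hold raw read counts per gene symbol, made by the authors, and the submitters' processing notes name STAR 2.7.1a and mm10. No source used here names the gene annotation behind the counts. Counts that ignore strand were used, and 4 rows of unassigned reads were left out (unmapped reads 7.77% to 22.6%, reads outside genes 8.55% to 16.6%, ambiguous reads 0.772% to 1.40%). Replicates differed by a chi-square of 6.85 to 132 per degree of freedom, so each library was kept as a replicate.

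Comparisons used edgeR 4.0.16 in R 4.3.3 (TMM scaling, filterByExpr, glmQLFit with robust = TRUE, glmQLFTest, two-sided, Benjamini-Hochberg over all tested genes, threshold 0.05) on the groups compared, and on all 11 libraries for the interaction. SE is the log2 fold change divided by the square root of F. CPM levels use TMM over all 11 libraries, and log2 CPM a prior count of 2. Alternatives used DESeq2 1.42.0, limma 3.58.1, other scaling and filters, and fewer libraries. The fits were tested on simulated data. The 9 genes and the gene lists were chosen with earlier results of these data known. Genes were named by this rule: the 9 genes and Arntl throughout, up to 8 called other complement genes per comparison by smallest p, up to 5 called neighbours of C4b, the 5 genes nearest C4b in pattern, and at most 3 markers per cell type by level, of which 1 is not reported here. C1qa, C1qc, C1ra, Masp1, Csmd1 and Vtn in the callosum genotype comparison, and Tnxb, Stk19, Tm4sf1, Csf1r and Nr1d2, fall outside it and were named after their values were seen. Shared 50-base stretches, alignments and exon overlaps are from GENCODE M21, positions and promoters from RefSeq.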

Additional observations from a re-analysis of the deposited data

Results flagged for a closer look

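The genotype difference of C4b differed between the sources. It was 3.67 ± 0.33 (SE) higher on the log2 scale in callosum than in neurospheres by the interaction term over all 11 libraries, which 0.0131% of all tested genes (2 of 15322) passed by edgeR. The term contains the callosum contrast for which C4b was chosen, so it is a description. Both callosum libraries labelled Bmal1-/- lay above wild type, and 2 of 3 neurosphere libraries with that label lay below it.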

How the results depend on the processing

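The log2 fold change of C4b in callosum kept its sign in 12 alternatives (3.29 to 3.68), and 0 of the other complement genes were called in callosum or neurospheres in any alternative. Counts of called genes over the genome depended on the setting. In callosum, 129 genes passed, against 224 with no filter, 322 with DESeq2, 33 in the model of 11 libraries and 27 to 192 when 1 library was left out (73 and 27 without wild-type replicates 2 and 3, 49 without replicate 1 labelled Bmal1-/-). In neurospheres, 1 passed, against 5 with no filter, 33 with DESeq2, 2 with limma-voom, 19 in the model of 11 libraries and 1 to 5 with 1 library left out (5 without replicate 1 labelled Bmal1-/-). For the interaction, 2 passed, against 37 with DESeq2 and 1 to 10 with 1 library left out (10 without neurosphere replicate 1 labelled Bmal1-/-, 1 without wild-type neurosphere replicate 2, wild-type callosum replicate 2 or 3, or callosum replicate 2 labelled Bmal1-/-). The replicate number as a block gave 2 genes in neurospheres and 1 for the interaction. Numbers pair no samples by the labels, and deviations of same-numbered libraries correlated at 0.274, -0.00364 and 0.275 in neurospheres and 0.0389 and 0.0113 in callosum.

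In callosum the signs of Serping1, C5ar1 and Cd59a turned with 1 library left out. Signs also turned for genes that had not passed in neurospheres. Leaving out 1 library gave -0.20 to 0.66 for Cfb (-0.20 and -0.028 without wild-type replicates 2 and 3), -0.15 to 0.29 for Serping1 (-0.077 without wild-type replicate 3, -0.15 without Bmal1-/- replicate 1), -0.38 to 0.88 for C3ar1 and -0.23 to 1.26 for C5ar1, both lowest without Bmal1-/- replicate 1. C3ar1 also turned with limma-voom (-0.16) and with the replicate block (-0.051). Between sources, C4b (2.93) and C3 (1.06) turned higher in callosum when the Bmal1-/- groups were compared, and Serping1 turned there (-0.24), with library totals (-0.28) and without wild-type callosum replicate 1 (-0.038, with 0.56 the highest). C2 turned without wild-type neurosphere replicate 3 (0.24, with -0.43 the lowest). Library totals without scaling moved the median of all genes between sources by -0.50, took the share of calls higher in callosum from 49.0% to 39.3%, and turned Masp1 (-0.025) and the neighbour Ppt2 (-0.076). The cause was not tested. Low counts limit C2, C3, Cd59a and both receptors in callosum.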
